A study of Homo sapiens with 32 samples.

Results

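ATM, ATR and PRKDC (the catalytic subunit of DNA-PK) are related kinases that sit at the head of the DNA damage response. They were followed together with MRE11, RAD50 and NBN, which form the MRN complex, the break-bound proteins TP53BP1 and H2AX, and the checkpoint kinases CHEK1 and CHEK2. The 10 genes were chosen by name, and their Ensembl identifiers took 10 of the 60107 gene rows of the count table. Every one of the 10 was counted often enough to be tested in each comparison.

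MRN binds the ends of double-strand breaks and recruits ATM, which phosphorylates H2AX around the break and activates CHEK2. TP53BP1 binds the marked chromatin, and DNA-PK takes part in end joining. ATR answers single-stranded DNA, above all at stalled replication forks, and acts through CHEK1. These steps run mostly through phosphorylation of proteins already present, and 3′ mRNA counts measure only the mRNA.

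The study asked how camptothecin (CPT), a poison of topoisomerase I, and the loss of ATM change protein aggregation, and RNA was taken in 4 independent repeats from the same cells. HEK293T is a human embryonic kidney line that carries the SV40 large T antigen, and U2OS is a human osteosarcoma line with wild-type p53. Cells received CPT (100 nM for HEK293T, 400 nM for U2OS), the ATM inhibitor KU-55933 (9 µM, HEK293T) or the solvent DMSO for 24 h and recovered for 48 h, while U2OS wild-type and ATM knockout cells grew without drug for 72 h. The knockout was made with CRISPR/Cas9 and repair plasmids and grown from single picked cells, so that a difference from wild type may belong to the clone as much as to ATM.

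The sets compared here each hold 4 libraries. Libraries 26 to 29 are U2OS cells given CPT and 30 to 33 their DMSO controls, and libraries 22 to 25 are HEK293T cells given DMSO. Libraries 18 to 21 carry the label of a HEK293T ATM knockout and were taken as the ATM inhibitor, the HEK293T ATM condition for which the study describes RNA sequencing. Libraries 1 to 8 and 10 to 17 were split by line and by odd or even number. The labels of these 16 go against their RNA, as 14 of them resembled the other line than the one they are labelled with. The HEK293T odd set (11, 13, 15, 17) and even set (10, 12, 14, 16) would be DMSO and CPT, and the U2OS odd set (1, 3, 5, 7) and even set (2, 4, 6, 8) would be wild type and ATM knockout, if the numbers keep the order of the design. The labels do not say so, and the sets are therefore called by their numbers, with no direction drawn for CPT or for the knockout from them.

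The libraries held 1232674 to 6362433 counts on genes, so that 3 counts, the smallest number read as present, correspond to between 0.472 and 2.43 CPM, the counts of a gene for every 1000000 counts on genes of its library. Pearson's r of log2 CPM over 15404 genes was 0.940 to 0.993 with the DMSO libraries of the nearer line and 0.732 to 0.786 with those of the other. The summed level of 10 U2OS markers was at most 134 CPM in the HEK293T-like libraries and at least 3049 CPM in the U2OS-like ones. Of the 8 HEK293T markers, NEFM and INA were at 0 in 11 and 13 of the 16 U2OS-like libraries. LIN28B, SALL2, TUBB2B and CKB were higher in every HEK293T-like library than in any U2OS-like one. NEFL and PAX2 did not separate the lines. NEFL was at 51.9 to 180 CPM in the U2OS-like libraries, with a higher median there (131.5 CPM) than in the HEK293T-like ones (75.6 CPM). PAX2 was at 1.64 to 8.66 CPM in the U2OS-like and 3.10 to 9.43 CPM in the HEK293T-like libraries. No pair of libraries in a set agreed within counting noise, with a chi-square per degree of freedom of 1.83 to 24.8 in 48 pairs. The largest values, 23.8 and 24.8, were those of library 8 with libraries 4 and 6 in the U2OS even set.

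**Figure D1:**
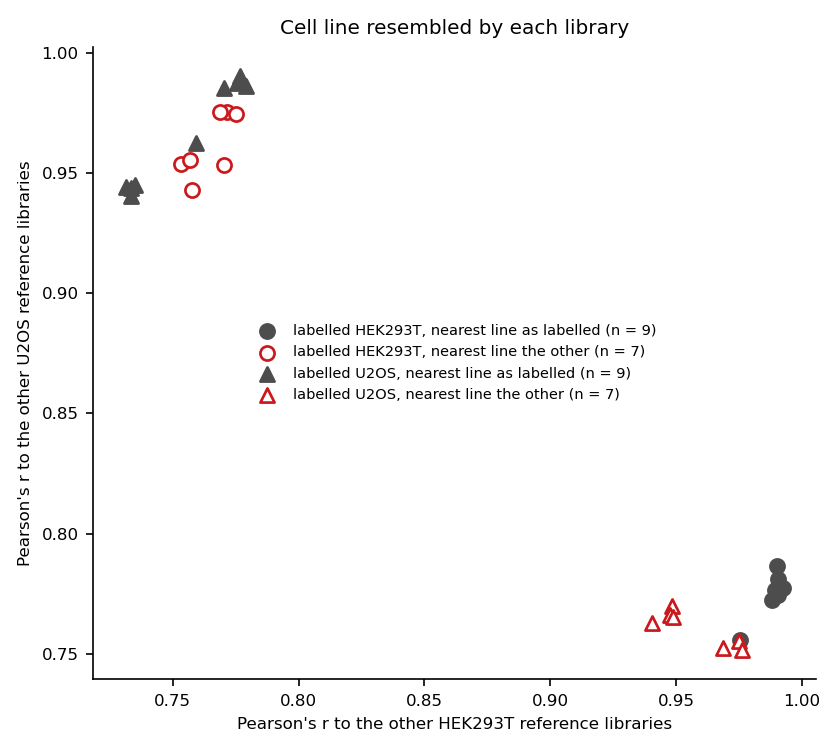
Each point is 1 of 32 libraries, placed by Pearson's r of its log2 CPM with the mean of the HEK293T DMSO libraries 22 to 25 (x axis) and of the U2OS DMSO libraries 30 to 33 (y axis), itself left out. Circles are labelled HEK293T and triangles U2OS, and the 14 open red symbols lie with the line that their label does not name.

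CPT in U2OS cells was followed by less mRNA of both checkpoint kinases, of H2AX and of MRE11, while ATM, ATR and PRKDC did not pass the test. The calls of CHEK2 and MRE11 depended on single libraries. Of the 10 genes, 4 passed a Benjamini-Hochberg adjusted p of 0.05 in edgeR's quasi-likelihood test, and these 4 were lower after CPT. Over all genes tested 31.9% passed, 15.3% lower and 16.6% higher after CPT, so the share of 4 in 10 stood near the background. The median log2 fold change of the 10 was -0.09, against 0.01 over all genes.

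H2AX encodes the histone variant whose phosphorylated form marks breaks. It stood at 87.7, 80.2, 68.0 and 63.0 CPM in DMSO libraries 30 to 33 and at 18.8, 25.7, 25.3 and 35.9 CPM in CPT libraries 26 to 29. Every CPT library lay below every control, with a log2 fold change of -1.32 (SE 0.15, 95% interval -1.62 to -1.02, adjusted p = 1.73e-08 by the quasi-likelihood test). Of the other H2A variants, H2AZ1 (log2 fold change -0.87) and H2AZ2 (-1.17) fell as well, and 2 of the 4 tested did not pass. H2AX transcripts end either in a stem-loop or in a poly(A) tail, and oligo(dT) priming reads the polyadenylated form, so a shift between both forms cannot be told apart from a change in total H2AX mRNA.

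CHEK1, the kinase that ATR activates, stood at 59.0, 52.0, 45.7 and 37.0 CPM in the DMSO libraries and at 20.6, 24.8, 20.4 and 20.9 CPM after CPT. The sets did not overlap, and the log2 fold change was -0.97 (SE 0.14, 95% interval -1.26 to -0.68, adjusted p = 2.51e-06, quasi-likelihood test). CHEK2, the kinase that ATM activates, was counted far less often, with 14.2, 8.60, 6.45 and 7.21 CPM in DMSO and 2.65, 3.72, 7.62 and 4.37 CPM after CPT. Its sets overlapped at library 28. Its log2 fold change of -0.82 (SE 0.29) passed narrowly (adjusted p = 0.026, quasi-likelihood test), and the call was lost in DESeq2 (adjusted p = 0.072) and without any one of libraries 26, 27, 29 or 30 (edgeR adjusted p from 0.055 to 0.13). The CHEK2 rows rest on 9 to 46 counts per library, and 4 annotated pseudogene copies (CHEK2P2 to CHEK2P5) can take or share its reads.

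Within the MRN complex the subunits did not move together. MRE11, its nuclease, went from 99.4, 91.2, 85.8 and 96.9 CPM to 58.3, 64.5, 71.0 and 64.3 CPM, with no overlap (log2 fold change -0.36, SE 0.12, quasi-likelihood adjusted p = 0.015). Without library 26 MRE11 missed the threshold, at an adjusted p of 0.053 in the same test. NBN, the subunit that binds ATM, stood at 48.1 to 56.2 CPM in DMSO and at 32.4 to 46.2 CPM after CPT. The NBN sets did not overlap as plain CPM, yet the edgeR fit, which scales by TMM factors of 0.999 to 1.15 for the controls and 0.919 to 0.956 for CPT, gave a log2 fold change of -0.27 (SE 0.13, adjusted p = 0.12). RAD50, the ATPase of the complex, had overlapping sets and a log2 fold change of 0.27 (SE 0.13, quasi-likelihood adjusted p = 0.12). Without library 26 NBN passed, at -0.36, and RAD50 passed without library 29 (0.37) or library 33 (0.43).

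The mRNAs of the 3 large kinases were not called. ATM stood at 55.0 to 87.7 CPM in DMSO and 63.3 to 85.5 CPM after CPT, with a log2 fold change of 0.20 (95% interval -0.06 to 0.47). For ATR the value was 0.26 (95% interval 0.01 to 0.51) and for PRKDC 0.10 (-0.14 to 0.33). TP53BP1, which is bound to chromatin beside breaks, had 0.09 (-0.14 to 0.32). The intervals leave room for rises of up to 0.51 on the log2 scale and do not show that these mRNAs stayed level. NPAT, the histone transcription factor whose gene lies head to head with ATM, fell by 0.38 on the log2 scale (quasi-likelihood adjusted p = 0.043).

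**Figure D2:**
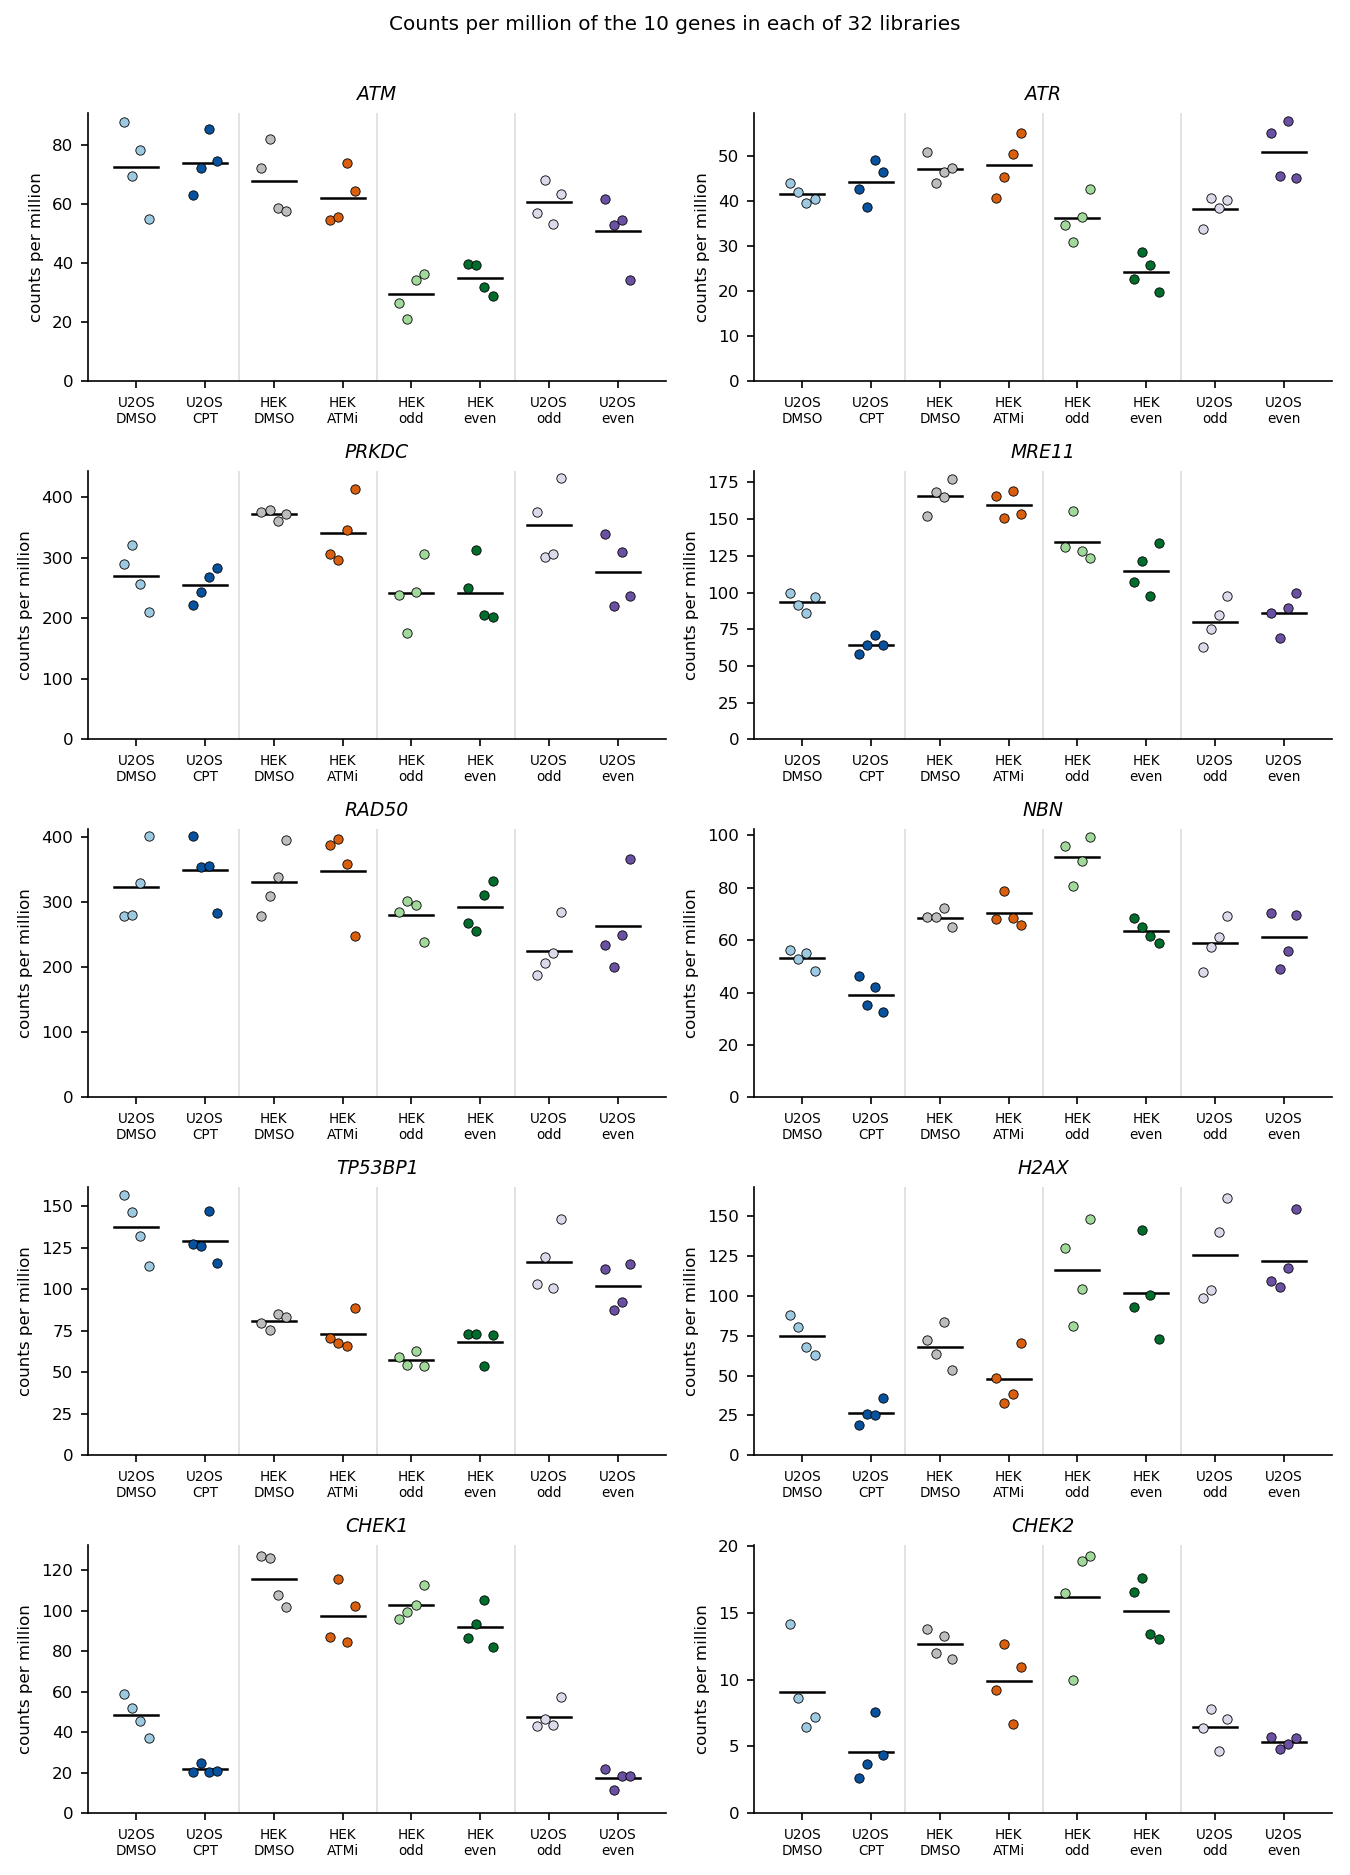
Each panel plots the CPM of 1 gene (y axis, from 0) in the 8 sets of 4 libraries (x axis), with 1 point per library and a bar at the set mean. ATMi is the ATM inhibitor. H2AX, CHEK1 and MRE11 drop without overlap between U2OS DMSO and U2OS CPT, CHEK1 is also low in the U2OS even set, and ATM in the HEK293T odd and even sets lies below every other HEK293T library.

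The sequences just upstream of the start sites are shown for the 4 genes called lower after CPT in U2OS, and for ATR and RAD50, which did not pass. They were chosen because the former hold CCAAT and the latter do not, a choice made after the windows were seen. RefSeq (GRCh38.p14) held an entry for 8 of the 10 genes, all but NBN and PRKDC. The 250 bases before the start are written 5′ to 3′ on the coding strand. Capitals mark CCAAT, the box bound by NF-Y, and TTTGAA, the CHR element of cell cycle genes, each on either strand (ATTGG and TTCAAA when read backwards). The sites found do not overlap each other, and none of these windows held the E2F-like sequences TTTGGCGC or TTTCCCGC on either strand.
H2AX, chr11:119095466-119095715, minus strand: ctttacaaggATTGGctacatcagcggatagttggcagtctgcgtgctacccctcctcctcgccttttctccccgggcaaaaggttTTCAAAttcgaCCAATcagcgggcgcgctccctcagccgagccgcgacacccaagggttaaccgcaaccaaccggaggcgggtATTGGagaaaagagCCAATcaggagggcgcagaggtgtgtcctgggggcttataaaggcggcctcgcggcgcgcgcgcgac
CHEK1, chr11:125625979-125626228, plus strand: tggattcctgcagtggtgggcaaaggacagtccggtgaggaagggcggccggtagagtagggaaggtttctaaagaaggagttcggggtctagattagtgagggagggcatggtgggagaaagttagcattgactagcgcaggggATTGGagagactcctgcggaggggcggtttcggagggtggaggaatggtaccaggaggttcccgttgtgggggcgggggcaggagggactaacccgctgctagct
CHEK2, chr22:28741821-28742070, minus strand: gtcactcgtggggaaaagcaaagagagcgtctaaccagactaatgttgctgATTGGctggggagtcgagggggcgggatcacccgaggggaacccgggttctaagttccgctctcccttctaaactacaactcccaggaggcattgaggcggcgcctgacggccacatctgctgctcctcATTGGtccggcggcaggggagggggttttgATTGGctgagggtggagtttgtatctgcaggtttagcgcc
MRE11, chr11:94493845-94494094, minus strand: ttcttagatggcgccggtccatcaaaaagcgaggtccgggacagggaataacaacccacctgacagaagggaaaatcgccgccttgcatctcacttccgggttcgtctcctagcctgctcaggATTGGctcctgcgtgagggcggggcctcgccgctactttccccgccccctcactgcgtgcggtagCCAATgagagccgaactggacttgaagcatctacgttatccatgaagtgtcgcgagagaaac
ATR, chr3:142578734-142578983, minus strand: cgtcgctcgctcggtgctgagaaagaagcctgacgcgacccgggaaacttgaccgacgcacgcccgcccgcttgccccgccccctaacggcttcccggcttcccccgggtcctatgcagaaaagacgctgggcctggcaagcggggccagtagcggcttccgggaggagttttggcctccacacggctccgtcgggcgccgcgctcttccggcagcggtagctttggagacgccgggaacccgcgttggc
RAD50, chr5:132556727-132556976, plus strand: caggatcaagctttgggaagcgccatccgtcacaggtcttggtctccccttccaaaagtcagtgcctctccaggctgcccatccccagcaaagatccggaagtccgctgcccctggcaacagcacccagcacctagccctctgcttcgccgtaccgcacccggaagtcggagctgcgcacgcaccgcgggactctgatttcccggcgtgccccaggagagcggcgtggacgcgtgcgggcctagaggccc

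CCAAT occurred 4 times before H2AX, 3 times before CHEK2, 2 times before MRE11 and 1 time before the first of the 3 listed starts of CHEK1, and 0 times before ATR and RAD50. It was also present 1 time before TP53BP1 and before each of the 2 listed ATM starts, and neither TP53BP1 nor ATM passed the test. Among all 35116 RefSeq windows of the same length, 32% held CCAAT, 13.3% TTTGAA, 0.55% TTTGGCGC and 1.39% TTTCCCGC. H2AX and the first ATM window held 1 TTTGAA each. A match is a description of the letters and says nothing of what binds there. The first ATM window and the NPAT window share bases on opposite strands.

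The counts in the wider lists stand beside 15.3% of all genes called lower and 16.6% called higher. In the ATR and CHEK1 arm 9 of 17 genes fell in U2OS after CPT and 0 rose, with a median log2 fold change of -0.40. TIMELESS, a fork protection factor, fell by 1.07, the phosphatase CDC25B by 1.15 and RPA3, a subunit of the single-strand binding complex, by 0.74. CLSPN, the adaptor that presents CHEK1 to ATR, fell by 0.59, whereas CDC25A, the phosphatase that CHEK1 marks for destruction, did not pass (-0.22, adjusted p = 0.26, quasi-likelihood test). Among 17 mediators of the break response 8 fell and 1 rose (median -0.34), among them KAT5, the acetyltransferase of ATM (-1.03), and BARD1 and BRCA1 (-0.68 and -0.63).

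The partners of PRKDC in end joining split. XRCC4 (0.92) and LIG4 (0.63), which seal the ends, rose, and the Ku subunits XRCC5 (-0.49) and XRCC6 (-0.44) fell, with 5 of 9 not called. Of the 8 other PIKK kinases and assembly factors, the ATPase RUVBL1 rose (0.54), TTI2 fell (-0.57) and 6 did not pass, a share of calls no larger than the 31.9% of all genes. In the p53 list 11 of 12 genes rose (median 1.56). The p21 gene CDKN1A went from 91.1 to 105 CPM in DMSO to 389 to 434 CPM (log2 fold change 2.24) and the p53 ligase MDM2 from 124 to 144 CPM to 453 to 485 CPM (2.0). In the S phase and mitosis list 16 of 18 genes fell (median -0.84), including the helicase subunit MCM6 (-1.80) and the mitotic kinase PLK1 (-1.47). The p53 and S phase lists moved beside CHEK1 and H2AX, and their part in those values was not tested.

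The ATM inhibitor left all 10 genes below the threshold in HEK293T cells. Of 18413 genes tested 0.00543% passed, which is 1 gene, and 1019 had an unadjusted p under 0.05. The 10 log2 fold changes ran from -0.47 to 0.14, with a median of -0.07.

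ATM itself stood at 54.6, 55.8, 74.1 and 64.4 CPM in inhibitor libraries 18 to 21 and at 72.4, 82.0, 58.9 and 57.8 CPM in DMSO libraries 22 to 25. The sets overlapped, with a log2 fold change of -0.06 (95% interval -0.32 to 0.19). A knockout need not lower these counts, since they are read at the 3′ end of the transcript and an edit upstream can leave it in place, so the ATM level does not settle whether these libraries are an inhibitor or a knockout. ATR had 0.08 (95% interval -0.16 to 0.31), PRKDC -0.07 (-0.28 to 0.13) and CHEK1 -0.18 (-0.42 to 0.05).

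The largest difference among the 10 was that of H2AX, at 48.6, 32.9, 38.3 and 70.6 CPM with the inhibitor and 72.1, 63.4, 83.7 and 53.6 CPM in DMSO. Library 21 lay within the controls and the other 3 inhibitor libraries below them. The log2 fold change was -0.47 (SE 0.15, adjusted p = 0.77, quasi-likelihood test). Without library 21 it was -0.67 and passed (adjusted p = 0.010, edgeR), while the number of genes called rose from 1 to 97 over the whole table, so the call of H2AX rests on leaving out that library. CDKN1A (-0.07), MDM2 (-0.11), CLSPN (0.20), CDC25A (0.04) and NPAT (0.28) did not pass either, nor did any other of the 87 genes in the wider lists of damage response, cell cycle and histone genes.

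**Figure D3:**
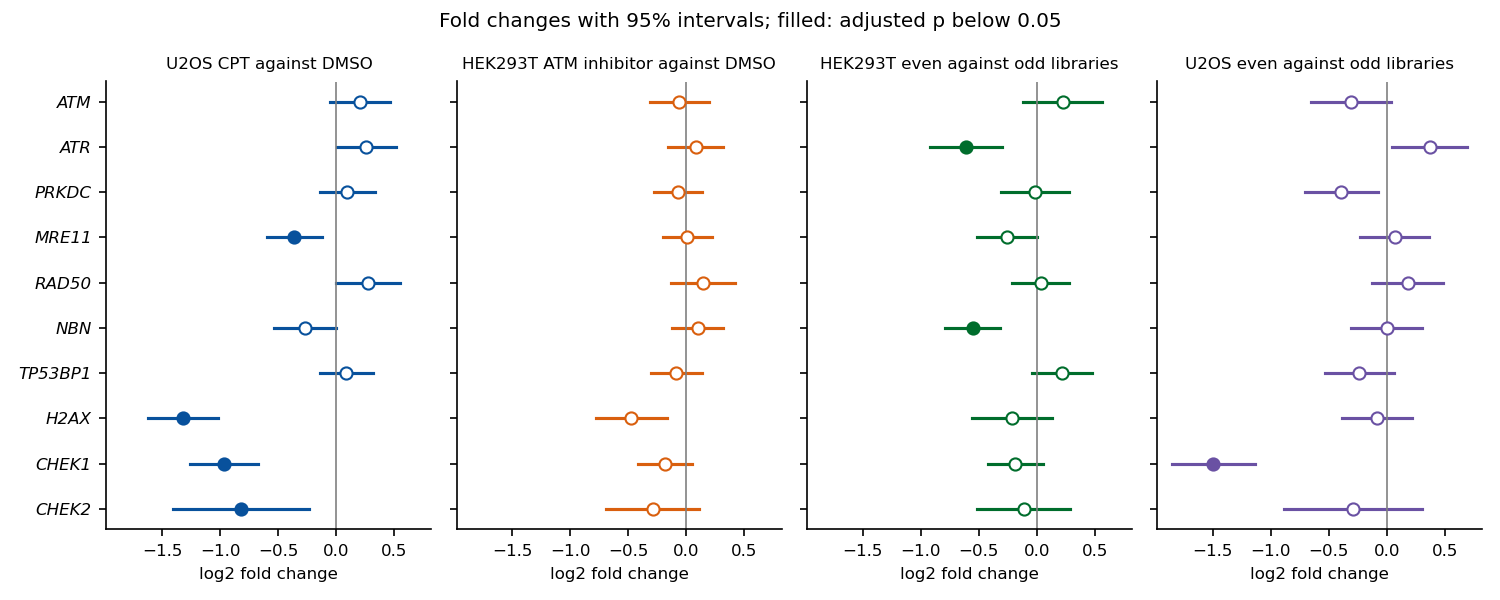
Log2 fold change (x axis) of each of the 10 genes (y axis) in 4 comparisons, with lines for the 95% intervals and filled points for an adjusted p below 0.05 in edgeR's quasi-likelihood test. The ATM inhibitor panel has 0 filled points, U2OS CPT has 4, the HEK293T even set 2 (ATR and NBN) and the U2OS even set 1 (CHEK1).

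In the HEK293T even set ATR and NBN were lower than in the odd set, and the other 8 genes did not pass. The even libraries are labelled U2OS ATM knockout, and the odd ones U2OS wild type, apart from library 17, which is labelled HEK293T DMSO. Of all genes 34.9% passed, so 2 of 10 was below the background. The median log2 fold change was -0.15, against 0.04 over all genes.

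ATR stood at 34.7, 30.97, 36.4 and 42.8 CPM in odd libraries 11, 13, 15 and 17 and at 22.7, 28.7, 25.9 and 19.96 CPM in even libraries 10, 12, 14 and 16. The sets did not overlap (log2 fold change -0.61, SE 0.15, adjusted p = 0.0028, quasi-likelihood test). NBN stood at 96.2, 80.9, 90.4 and 99.3 CPM in the odd and at 68.6, 65.1, 61.7 and 58.9 CPM in the even libraries, again without overlap (-0.55, SE 0.12, adjusted p = 6.72e-04, same test). ATR and NBN passed with each library left out in turn. The share of counts outside annotated genes also separated the sets, at 9.39% to 10.99% in the odd and 15.8% to 18.5% in the even libraries, and its part in these values was not tested.

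The 4 genes called lower in U2OS after CPT did not pass between the HEK293T sets. CHEK1 was at 95.7 to 113 CPM in the odd and 82.0 to 105 CPM in the even set (log2 fold change -0.19, 95% interval -0.42 to 0.05), and H2AX at 81.4 to 148 and 73.2 to 141 CPM (-0.21, -0.56 to 0.13). CHEK2 had -0.11 (-0.52 to 0.29). MRE11 had -0.25 (-0.51 to 0.00) and passed only without library 16 among the libraries left out. ATM had 0.22 (-0.11 to 0.56) and PRKDC -0.01 (-0.31 to 0.28).

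In the p53 list 9 of 12 genes were higher in the HEK293T even set and 0 lower (median 0.78), where 17.6% of all genes were called higher and 17.3% lower. CDKN1A stood at 19.5 to 56.9 CPM in the odd and 121 to 228 CPM in the even libraries (log2 fold change 2.17), and MDM2 at 154 to 262 and 409 to 494 CPM (1.14). In the S phase and mitosis list 10 of 18 genes were higher, 4 lower and 4 not called (median 0.38). AURKA (1.47) and CCNB1 (0.97), which drive mitosis, and BUB1 (0.99), a kinase of the spindle checkpoint, were higher. The 4 lower genes, named after their values were seen, were MCM7 (-0.72), MCM2 (-0.51), TYMS (-0.49) and MCM3 (-0.36), which serve DNA replication. In the ATR and CHEK1 arm 3 of 17 genes were higher and 6 lower, among them CDC25B (0.72) and CLSPN (0.65) on one side and the clamp loader RAD17 (-0.64) and ETAA1, an activator of ATR (-0.62), on the other. Of the 17 mediators 3 were higher and 5 lower, among them the ubiquitin ligase RNF168 (0.64) and MDC1 (0.59), and ABRAXAS1 (-1.76) and KAT5 (-1.35). NPAT (0.32, adjusted p = 0.052, quasi-likelihood test) and CDC25A (0.16) did not pass.

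The difference between the change in U2OS (CPT against DMSO) and that in HEK293T (even against odd) was tested in one fit over the 16 libraries. It passed for 3 of the 10 genes, against 20.3% of all genes. The difference was 0.87 for ATR (SE 0.19, adjusted p = 5.60e-04, quasi-likelihood test), whose own log2 fold changes were 0.26 in U2OS and -0.61 in HEK293T. It was -0.78 for CHEK1 (SE 0.18, adjusted p = 0.0014) and -1.10 for H2AX (SE 0.23, adjusted p = 3.51e-04), whose own values were lower in U2OS (-0.97 and -1.32) than in HEK293T (-0.19 and -0.21). NBN, called in HEK293T and not in U2OS, had a difference of 0.29 (95% interval -0.07 to 0.65) that did not pass, and CHEK2 had -0.71 (-1.42 to 0.00). In the S phase and mitosis list 15 of 18 differences were negative and passed (median -1.12). The drug dose differs between the lines, and if the even set is not CPT these values compare unlike things. The share of counts outside annotated genes also separated the HEK293T even and odd sets, and its part in these differences was not tested.

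**Figure D4:**
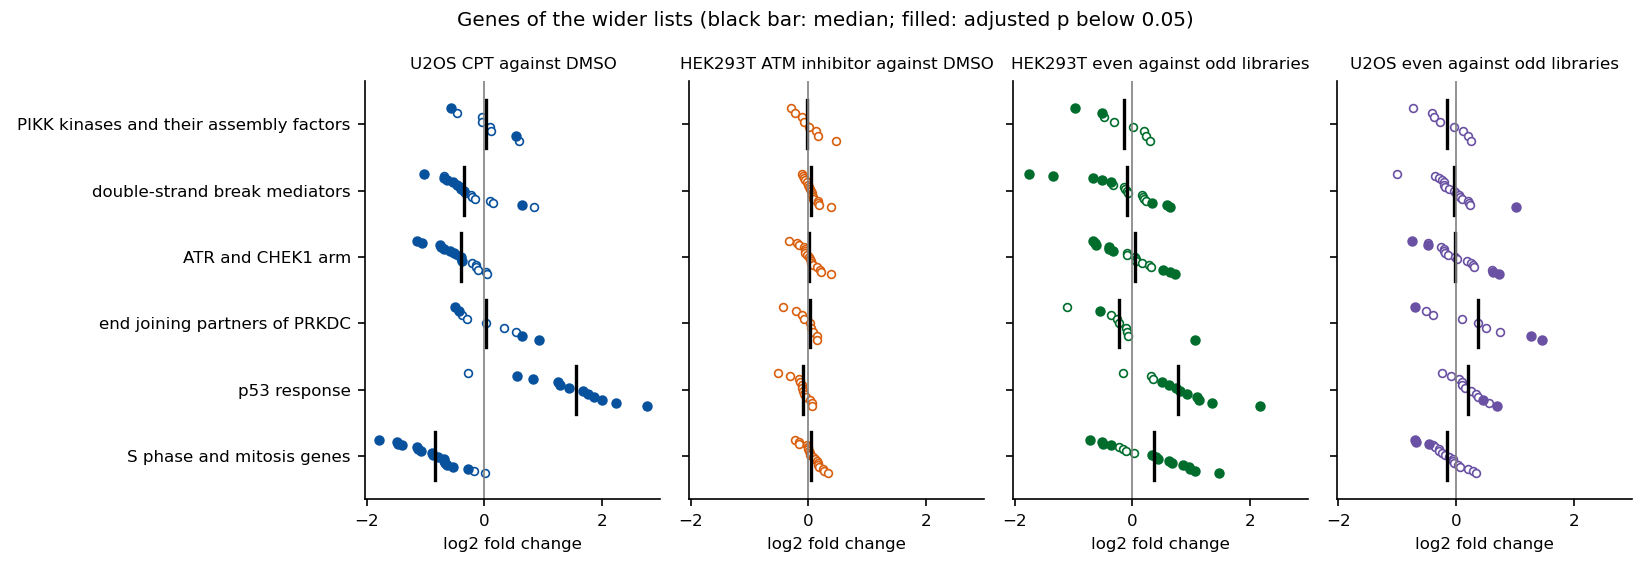
Log2 fold change (x axis) of each tested gene in 6 lists (y axis) in 4 comparisons, filled where the adjusted p was below 0.05, with a black bar at the list median. The p53 list lies to the right in U2OS CPT and in the HEK293T even set (medians 1.56 and 0.78), and the S phase and mitosis list has medians of -0.84 and 0.38 in the same 2 panels.

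The U2OS even libraries are labelled HEK293T CPT, and the odd ones HEK293T DMSO, apart from library 1, which is labelled U2OS wild type. CHEK1 was the 1 gene of the 10 that passed between them, against 13% of all genes. It stood at 43.1, 46.7, 43.5 and 57.5 CPM in odd libraries 1, 3, 5 and 7 and at 21.9, 11.6, 18.2 and 18.6 CPM in even libraries 2, 4, 6 and 8. The sets lay far apart, and the log2 fold change was -1.50 (SE 0.18, 95% interval -1.85 to -1.14, adjusted p = 3.66e-09, quasi-likelihood test).

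The genes beside CHEK1 on chromosome 11 were lower as well. Of the 10 tested genes before it in RefSeq order 5 were called lower and 0 higher, and of the 10 after it 6 were lower and 0 higher, with medians of -0.90 and -0.99. Over all genes 6.56% were called lower in this comparison. The nearest on either side with enough counts were STT3A (-1.28, SE 0.16), EI24 (-1.31, SE 0.15) and HYLS1 (-0.83, SE 0.23). From the 11th to the 39th gene after CHEK1, the last tested on the chromosome, 13 of 29 were called lower and 0 higher (median -0.78), whereas the 30 genes from the 40th to the 11th before it had a median of 0.06. In U2OS after CPT, where CHEK1 also fell, the 20 nearest genes had 3 lower and 4 higher calls and a median of 0.04.

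The other members on chromosome 11 had neighbours with medians nearer 0. The 20 neighbours of ATM had a median of 0.15, those of MRE11 0.06 and those of H2AX 0.07, with 0 of 20 called lower beside ATM and H2AX and 2 of 20 beside MRE11. Beside CHEK2, on chromosome 22, 7 of 20 neighbours were called lower and 0 higher (median -0.52), while CHEK2 itself had -0.29 (SE 0.30, quasi-likelihood adjusted p = 0.60). Beside ATR 4 of 20 were called higher (median 0.27), where 1195 of all 18591 genes were called higher. These neighbours were listed after the main results were seen, and copy number was not measured.

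**Figure D5:**
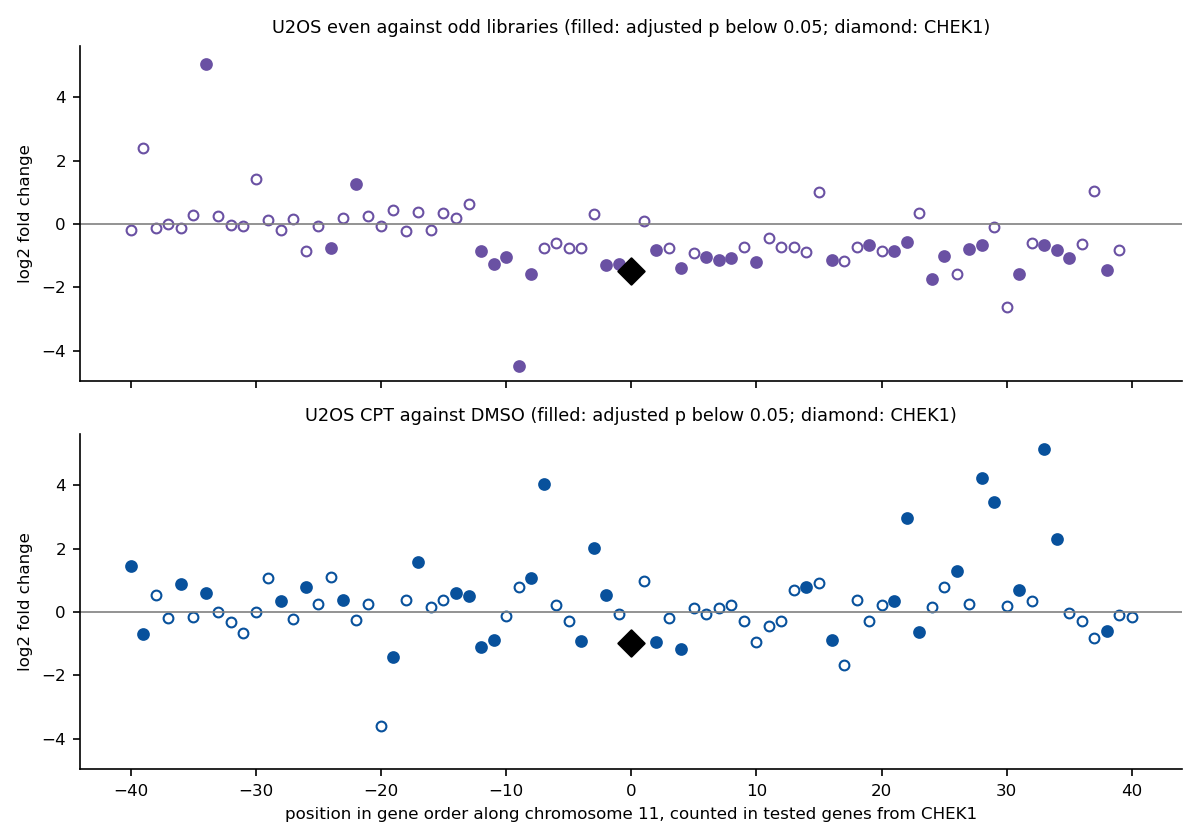
Log2 fold change (y axis) of the tested genes around CHEK1 in RefSeq order (x axis, in genes from CHEK1, to the end of the chromosome on the right) for the U2OS even against odd set (top) and CPT against DMSO (bottom), filled where the adjusted p was below 0.05. In the top panel the genes from just before CHEK1 onward lie mostly below 0, near -1, and in the bottom panel they scatter to both sides.

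ATM did not pass in the U2OS sets. It stood at 57.2, 68.4, 53.4 and 63.5 CPM in the odd and 61.7, 52.9, 54.7 and 34.2 CPM in the even libraries, so that library 8 alone was clearly lower (log2 fold change -0.31, SE 0.17, adjusted p = 0.25, quasi-likelihood test). As above, 3′ counts do not check an upstream edit of ATM. ATR had non-overlapping sets, 33.9 to 40.7 and 45.2 to 57.8 CPM, with a log2 fold change of 0.37 (adjusted p = 0.13, quasi-likelihood test) that passed without library 8 (0.46). PRKDC had -0.39 (adjusted p = 0.090, same test) and passed without library 2 (-0.50). H2AX (-0.08), NBN (0.00), MRE11 (0.07), RAD50 (0.18) and TP53BP1 (-0.24) did not pass.

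CDKN1A (0.15), MDM2 (0.34), CLSPN (-0.21), CDC25A (0.19) and NPAT (0.22) did not pass in these sets either. The list counts here stand beside 13% of all genes called, 1195 higher and 1220 lower of 18591. In the p53 list 2 of 12 genes passed, SESN1 (0.69) and ZMAT3 (0.46), a share near that background. Of the 9 partners of PRKDC the end-processing nuclease DCLRE1C (1.47) and PAXX (1.28) were higher and XRCC6 (-0.70) lower. In the ATR and CHEK1 arm 2 of 17 genes were higher, TOPBP1, an activator of ATR (0.63), and ATRIP, the partner of ATR (0.72). The fork protein TIPIN (-0.75) and CDC25B (-0.48) were lower, and 13 did not pass.

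Without damage the lines differed in 6 of the 10 genes, where 62.1% of all genes passed. CHEK1 was lower in U2OS DMSO, at 37.0 to 59.0 CPM, than in HEK293T DMSO libraries 22 to 25, at 102 to 127 CPM (log2 fold change -1.04, SE 0.12, adjusted p = 6.25e-09, quasi-likelihood test). MRE11 was lower too, at 85.8 to 99.4 against 152 to 177 CPM (-0.60, SE 0.11), and TP53BP1 higher, at 114 to 157 against 75.4 to 85.2 CPM (0.98, SE 0.11). These 3 genes kept direction and call when the odd sets 1 to 7 and 11 to 17 were compared in place of the DMSO sets (-0.74, -0.39 and 1.37). The U2OS DMSO libraries are also the controls of the CPT comparison. Between the DMSO sets the 20 tested genes nearest CHEK1 had 10 lower calls, 1 higher call and a median of -0.69. Over all 19739 genes tested, 5941 were called lower and 6315 higher in U2OS. The part of the region in the CHEK1 difference was not tested.

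The line differences of the large kinases depended on the sets. PRKDC was lower in U2OS DMSO (-0.25, quasi-likelihood adjusted p = 0.048), and in the odd sets it was higher in U2OS (0.92, adjusted p = 6.27e-07). ATM had 0.32 (adjusted p = 0.037, quasi-likelihood test) between the DMSO sets and 1.41 between the odd sets. In HEK293T cells ATM stood at 57.8 to 82.0 CPM in DMSO libraries 22 to 25 but at 21.2 to 36.4 CPM in odd libraries 11 to 17, with no overlap. The share of counts outside annotated genes was 23.6% to 30.4% in the former and 9.39% to 10.99% in the latter, and its part was not tested. The PRKDC means were 371.7 and 240.9 CPM in the same HEK293T sets. In the U2OS DMSO and odd sets they were 269.3 and 353.5 CPM. H2AX (0.35, adjusted p = 0.018, same test) lost its call without library 23 or 25, ATM without library 24, 25, 30 or 32, and PRKDC without any one of 7 of the 8 libraries, all but library 31. ATR (0.04), NBN (-0.15), RAD50 (0.20) and CHEK2 (-0.27) did not pass.

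ATM and CHEK1 were each set against 9903 expressed genes over the 32 libraries, after removing the mean of each line. The 3 genes most like ATM were CCNL1, RANBP17 and MON2 (Pearson's r of 0.94, 0.91 and 0.91), and those most like CHEK1 were COLEC12, MTAP and GPBP1L1 (0.90, 0.89 and 0.88). The libraries share sets and depth, so these are descriptions.

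Some reads may belong to other genes. The 3′ end of ATM is overlapped by C11orf65, that of CHEK1 by ACRV1 and that of TP53BP1 by TUBGCP4, each on the opposite strand in GENCODE 29. Genes on opposite strands share reads only if the counting ignored the strand, which is not given in the sources used here. RAD50 shares its 3′ end with AC116366.3 on the same strand and TH2LCRR on the other, and MRE11 has 1 annotated pseudogene copy, MRE11P1.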

How the data were processed

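Libraries were prepared by QuantSeq, which reads the 3′ end of each transcript and adds molecular identifiers. The authors deposited 1 table of raw counts, with genes in rows and the 32 libraries of both lines in columns, from the FWD UMI pipeline of Lexogen. The genome build and annotation release are not given in the sources used here. The table held 60107 genes, 5 summary classes and 92 spike-ins (at most 1 count per library in all), and the last 2 kinds were left out. Of the summary classes, those for reads outside any gene and for ambiguous reads together took 10.9% to 40.6% of a library's counts. All columns were used (0 left out). Symbols came from a gene name reference, and from GENCODE 29 where that gave none. Gene order and upstream sequences came from RefSeq.

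Each comparison used its own 4 against 4 libraries in edgeR 4.0.16 (R 4.3.3), with TMM normalization, a filter that asked for over 1 count in 2 or more libraries, and the quasi-likelihood test. Benjamini-Hochberg adjustment ran over all genes tested, with a call at an adjusted p under 0.05. CPM values are counts per 1000000 counts on genes, before TMM. Intervals cover 95%. A floor of 3 counts was used, which covers counting error only. The test was also run on simulated data with 200 genes changed in each comparison. These changes were all of 1 on the log2 scale, up or down, in well-counted genes only. It recovered 93.0% of them for U2OS CPT and 94.5% for the ATM inhibitor. For the HEK293T and U2OS even sets it recovered 93.0% and 87.5%, and between the lines 92.0%. These shares do not hold for smaller changes or for genes with few counts.

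The members and gene lists were chosen with earlier results of these data known. Named were all 10 members, at most 4 called genes of a list per comparison with the smallest adjusted p, NPAT, CDKN1A, MDM2, CLSPN and CDC25A, and the 3 genes most like ATM and CHEK1. The neighbours named beside CHEK1 were chosen after their values were seen. Libraries 1 to 17 were grouped by number and by the line that they resemble, in conflict with their labels, and the comparisons by label are given as alternatives. Alternatives were RLE normalization, other filters, edgeR's likelihood ratio test, DESeq2 1.42.0, all 8 sets in one fit, a cutoff of 1 on the absolute log2 fold change, other control sets and each library left out in turn. The depth differs by library, and so does the precision of CHEK2, the least counted of the 10 genes. The study describes 4 independent repeats. The labels do not name them by library, so p-values measure the spread between libraries.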

Additional observations from a re-analysis of the deposited data

Results flagged for a closer look

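In 80 groups of 4 libraries (10 genes in 8 sets), 2 held a library far from the other 3 by Dixon's criterion, where chance gives about 1 in 20. CHEK1 in U2OS CPT stood at 24.8 CPM in library 27 and at 20.4 to 20.9 CPM in the others, all below the DMSO libraries. TP53BP1 in the HEK293T even set stood at 54.1 CPM in library 14 and at 72.6 to 72.9 CPM in the others.

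For 3 of the 10 genes the change differed between U2OS (CPT against DMSO) and HEK293T (even against odd) in the interaction test of edgeR. The differences on the log2 scale were 0.87 for ATR, -0.78 for CHEK1 and -1.10 for H2AX, with adjusted p of 5.60e-04, 0.0014 and 3.51e-04. The limits given above for this test hold here too: the dose, the unsettled condition of the even set and the share of counts outside annotated genes.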

How the results depend on the processing

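Of 820 values of the 10 genes under other settings, 4 reversed a direction where the main or the other value was called. Sign changes between values that were both not called were left out of this count. The cutoff on the fold change reuses the main values and cannot reverse them. Between the HEK293T libraries grouped by label, ATR was at 0.44 and NBN at 0.023 (log2). Between the U2OS libraries grouped by label, CHEK1 was at 0.035, and PRKDC was at 0.92 between the odd sets of both lines. Each grouping by label mixes libraries that resemble different lines. It called 1604 genes in place of 6785 for HEK293T CPT against DMSO and 778 in place of 2415 for U2OS ATM knockout against wild type. With a cutoff of 1 on the absolute log2 fold change the calls were 2569 for U2OS CPT, 0 for the ATM inhibitor, 2718 and 974 for the HEK293T and U2OS even sets and 7872 between the lines, and of the 10 genes H2AX in U2OS CPT, CHEK1 in the U2OS even set and CHEK1 between the lines passed it. For the ATM inhibitor the single call became 16 with no filter, 5 with the likelihood ratio test, 0 against all 8 libraries labelled HEK293T DMSO (3 of which, libraries 3, 5 and 7, resemble U2OS), and 0 to 97 with each library left out (97 without library 21), and the cause was not tested. Counting all settings and the cutoff, calls of the 10 genes were lost 9 times for U2OS CPT, 27 times between the lines and 2 times for the HEK293T even set. With each library left out the calls ran from 5248 to 6066 for U2OS CPT, 5533 to 6642 and 1666 to 2820 for the HEK293T and U2OS even sets and 11464 to 11929 between the lines. Without a filter the median of all genes moved from 0.04 to 0.22 in the HEK293T sets. Depth limits CHEK2 most, with 7 to 98 counts per library. No paired analysis was possible because the labels give no replicate number that is shared between groups.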
